A study of Canis lupus familiaris with 25 samples.

Results

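The genes described here were the negative-feedback regulators of the MAPK pathway and the ETS factors that respond to it, namely the phosphatase genes DUSP4, DUSP5 and DUSP6, the Sprouty genes SPRY1, SPRY2 and SPRY4, the Sprouty-related genes SPRED1 and SPRED2, and the transcription factor genes ETV4 and ETV5. They were taken by symbol from the count table of canine perianal tumors. Of the 10 symbols, 9 were found among 24532 genes. DUSP4 was not analysed here, and the 9 genes found were all given below.

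In the MAPK pathway, receptor tyrosine kinases activate RAS, RAF, MEK and finally ERK, which is switched on by phosphorylation. ERK signaling induces the genes of its own inhibitors: dual-specificity phosphatases remove the phosphates from ERK, while Sprouty and SPRED proteins act further up, at the step between the receptor and RAF. The ETS factors ETV4 and ETV5 are commonly read as transcripts that follow ERK activity, because the repressor CIC, which silences them, is inactivated by the pathway.

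The samples were formalin-fixed, paraffin-embedded tumors of pet dogs, and 3′ ends of transcripts were sequenced with QuantSeq 3′. The hepatoid gland adenoma (HGA), a benign tumor of the perianal glands, was represented by 10 dogs aged 8 to 14 years (5 female and 5 male, 6 intact and 4 neutered). The apocrine gland anal sac adenocarcinoma (AGASAC), a malignant tumor, was represented by the primary tumors of 11 other dogs aged 8 to 12.5 years (5 female and 6 male, 2 intact and 9 neutered) and by a sublumbal lymph node metastasis from 4 of these dogs, aged 8 to 10 years (2 female and 2 male, 1 intact and 3 neutered). None of the labels named a treatment, the dogs belonged to many breeds, and no normal gland was among the samples, so that each value compares a tumor with another tumor.

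Each sample held between 1562347 and 6389555 counts on genes, and HGA spanned this whole range. Levels are given as CPM, the counts of a gene relative to the sequencing depth of its sample, with TMM factors. Where a gene had no count, as many as 3 counts remain possible, or 0.543 to 1.84 CPM depending on the sample, and this limit covers counting error only. The epithelial markers matched the tumor types of the labels. The summed luminal keratins KRT7, KRT8, KRT18 and KRT19 lay at 1782 to 4156 CPM in primary AGASAC, at 1992 to 4530 CPM in the metastases and at 1.29 to 148 CPM in HGA. The summed basal and squamous markers, among them KRT5, KRT14 and TP63, lay at 3519 to 13476 CPM in HGA, at 86.7 to 247 CPM in primary AGASAC and at 108 to 214 CPM in the metastases. HGA 10 and HGA 4 stood somewhat apart from the other HGA, with correlations of 0.908 and 0.919 to the group median, and results that rest on HGA 10 are marked below.

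DUSP5, which encodes a phosphatase of the nucleus that acts on ERK, separated the tumor types completely. In HGA it ranged from 0 CPM in HGA 9 over a median of 4.40 to 7.99 CPM in HGA 3, which corresponded to 0 to 32 counts. In primary AGASAC it ranged from 80.7 CPM in AGASAC 7 over a median of 258 to 707 CPM in AGASAC 10, or 231 to 2166 counts. The lowest AGASAC was thus far above the highest HGA. The means were 4.32 ± 2.75 CPM in HGA (SD, n = 10) and 323 ± 200 CPM in primary AGASAC (SD, n = 11). The log2FC, which is that of HGA relative to AGASAC unless another direction is given, was −6.15 (standard error 0.50, adjusted p = 7.14e-09 by edgeR with Benjamini-Yekutieli (BY) adjustment), a fitted fold of 71.0. In bulk tissue, fewer cells that express a gene and less RNA of it per cell cannot be told apart, and this applies to every difference below.

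DUSP6, which encodes the cytoplasmic ERK phosphatase of the same family, did not share this difference. It ranged from 125 CPM in HGA 9 over a median of 318 to 734 CPM in HGA 2, and from 82.8 CPM in AGASAC 7 over a median of 225 to 375 CPM in AGASAC 1. The groups overlapped widely, and 7 of the 11 primary AGASAC lay between 216 and 234 CPM. The means were 336 ± 179 CPM in HGA and 214 ± 71.3 CPM in primary AGASAC, with a log2FC of 0.68 (standard error 0.27, 95% confidence interval 0.13 to 1.24, BY-adjusted p = 0.379), which did not pass the thresholds.

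**Figure D1:**
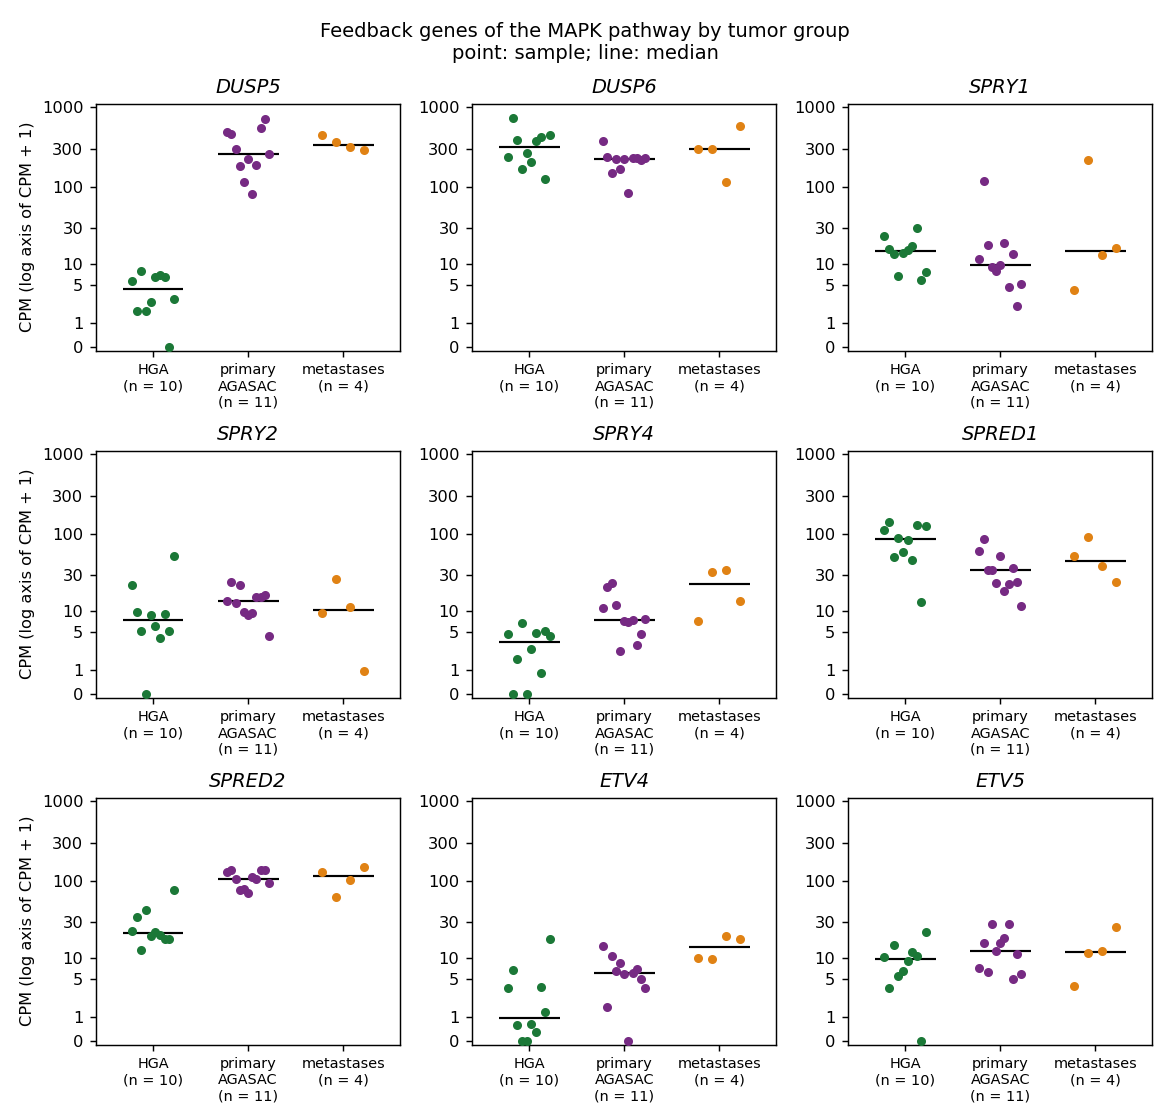
Levels of the 9 genes in CPM on a log axis of CPM + 1, with a point for each sample and a line at the median of HGA (n = 10), primary AGASAC (n = 11) and metastases (n = 4). DUSP5 lies at 0 to 7.99 CPM in HGA and above 80 CPM in every AGASAC sample, SPRED2 is separated except for HGA 10, and the other genes overlap between HGA and primary AGASAC.

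The Sprouty genes encode membrane-associated inhibitors of receptor signaling to ERK, and all 3 had low counts in most samples. SPRY1 ranged from 5.94 to 29.6 CPM in HGA (median 14.7) and from 2.29 to 120 CPM in primary AGASAC (median 9.65). A single primary tumor, AGASAC 2 with 120 CPM, stood above all others, as the next highest, AGASAC 7, had 19.2 CPM. The log2FC of −0.39 (standard error 0.53, BY-adjusted p = 1) rested on this tumor, because without it the log2FC was 0.59. The sum of 7 fibroblast markers was 6873 CPM in AGASAC 2 and 1018 to 7941 CPM in the other primary tumors. The part of stromal cells in the SPRY1 level was not tested.

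SPRY2 ranged from 0 CPM in HGA 4 over a median of 7.38 to 52.0 CPM in HGA 10, and from 4.37 CPM in AGASAC 11 over a median of 13.6 to 24.2 CPM in AGASAC 2. HGA therefore held both the lowest and the highest value, and the log2FC was −0.15 (standard error 0.49, 95% confidence interval −1.16 to 0.86, BY-adjusted p = 1). HGA 10 weighed on this value, since without it the log2FC was −0.78.

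SPRY4 had 0 to 26 counts in HGA, with 2 HGA without any. It ranged from 0 over a median of 3.48 to 6.76 CPM in HGA and from 2.43 over a median of 7.37 to 23.1 CPM in primary AGASAC, where AGASAC 2 and AGASAC 3 had the highest values (20.6 and 23.1 CPM). The log2FC was −1.58 (standard error 0.53, 95% confidence interval −2.67 to −0.50), but the BY-adjusted p of 0.161 did not pass the threshold. With the Benjamini-Hochberg (BH) procedure the adjusted p was 0.0162. SPRY4 was also called when the 4 metastases were counted as AGASAC (log2FC −1.99, BY-adjusted p = 0.0235). That fit entered 4 dogs more than once and took all samples as independent, so its p-value cannot be taken at face value. These 4 dogs also had the highest SPRY4 among the primary tumors (10.9 to 23.1 CPM, 2.43 to 7.78 CPM in the others). SPRY4 was not called by edgeR with the extraction batch (BY-adjusted p = 0.223), the naming series (0.119) or gonadal status (0.255) as a term.

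SPRED1 and SPRED2 encode inhibitors that hold the RAS GTPase-activating protein neurofibromin at the membrane, and they pointed in opposite directions. SPRED2 ranged from 12.5 CPM in HGA 3 over a median of 21.1 to 75.7 CPM in HGA 10, and from 69.6 CPM in AGASAC 6 over a median of 105 to 136 CPM in AGASAC 10. HGA 10 was the only HGA to reach the AGASAC range, as the next highest HGA had 42.4 CPM. The means were 28.6 ± 18.8 CPM in HGA and 107 ± 25.0 CPM in primary AGASAC, with a log2FC of −1.87 (standard error 0.27, BY-adjusted p = 3.64e-05), so that SPRED2 was 3.65-fold lower in HGA. Without HGA 10 the log2FC was −2.16.

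SPRED1, in contrast, ranged from 13.2 CPM in HGA 9 over a median of 85.6 to 139 CPM in HGA 2, and from 11.7 CPM in AGASAC 11 over a median of 34.5 to 84.3 CPM in AGASAC 2. The groups overlapped, with 5 of the 10 HGA above the highest primary AGASAC. The means were 84.4 ± 41.9 CPM in HGA and 36.6 ± 21.4 CPM in primary AGASAC, with a log2FC of 1.23 (standard error 0.35, 95% confidence interval 0.51 to 1.95). The BY-adjusted p of 0.0540 was just short of the threshold. It passed with DESeq2 (0.0350) and with gonadal status as a term (0.0101). It also passed when HGA 7, HGA 9, AGASAC 1 or AGASAC 2 was left out (0.00911 to 0.0440). It did not pass with the extraction batch as a term (log2FC 1.02, edgeR BY-adjusted p = 0.309). Nor did it pass with the naming series as a term (log2FC 1.03, edgeR BY-adjusted p = 0.519). Scaling by library size alone gave a log2FC of 0.95 (adjusted p = 0.258).

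The ETS factor genes ETV4 and ETV5, whose products bind the same DNA motif, were not called between the tumor types. ETV4 was close to the detection limit in HGA, where 6 of 10 samples had at most 3 counts, the median was 0.942 CPM and HGA 10 reached 17.6 CPM. In primary AGASAC it ranged from 0 CPM in AGASAC 7 over a median of 6.03 to 14.5 CPM in AGASAC 1. The log2FC was −0.81 (standard error 0.69, 95% confidence interval −2.24 to 0.61, BY-adjusted p = 1), and without HGA 10 it was −1.65 (adjusted p = 0.418). It was −2.06 with the extraction batch as a term, −3.98 within batch 8 and −2.17 within naming series A (batches and series are described below), so that a sizeable difference is within what these data allow. ETV5 ranged from 0 over a median of 9.55 to 21.9 CPM in HGA, again highest in HGA 10, and from 4.87 over a median of 12.5 to 28.1 CPM in primary AGASAC. Its log2FC was −0.54 (standard error 0.45, 95% confidence interval −1.47 to 0.39, BY-adjusted p = 1).

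In all, 2 of the 9 genes were called between HGA and primary AGASAC, which required a BY-adjusted p not above 0.05 together with a log2FC beyond ±1. Of all 12070 genes tested, 25.1% were called, so the share among the 9 genes was close to that of the transcriptome. Both called genes, DUSP5 and SPRED2, were higher in AGASAC, a direction in which 12.5% of all tested genes were called, and 0 were called higher in HGA, where 12.6% of all genes were called. At an unadjusted p under 0.05 there were 5 of the 9 genes, 3 higher in AGASAC (DUSP5, SPRY4, SPRED2) and 2 higher in HGA (DUSP6, SPRED1). DUSP5 was the only one of the 9 whose groups did not overlap in CPM, as was the case for 9.13% of all tested genes. The median log2FC of the 9 genes was −0.54, and that of all tested genes was −0.03. Scaling by library size alone in place of TMM shifted the median of all genes by −0.299 and reduced the share of called genes that were higher in HGA from 50.2% to 32.8%. Relative to this shift, DUSP5 was at −6.15 and SPRED2 at −1.85.

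RNA had been extracted in batches, of which 3 held at least 2 samples of each tumor type. HGA 10 was the only sample of batch 9. The log2FC of DUSP5 was −6.73 in batch 5 (3 HGA and 3 primary AGASAC), −5.74 in batch 6 (3 and 2) and −5.68 in batch 8 (2 and 3), with BY-adjusted p values of 0.0909, 0.00570 and 0.0715. For SPRED2 it was −2.17, −1.47 and −2.39 in the same order, with BY-adjusted p values of 0.199, 0.257 and 0.0941. The sequencing files also fell into a pair of naming series, with 9 HGA and 3 primary AGASAC in series A and 1 HGA and 7 primary AGASAC in series B. Within series A, the log2FC was −6.47 for DUSP5 (BY-adjusted p = 3.32e-06) and −2.36 for SPRED2 (BY-adjusted p = 0.000258). Series B held a single HGA, so that no value within it was computed. SPRED1 was less even, at 1.37, 1.29 and 0.22 in batches 5, 6 and 8 and at 0.44 in series A. Among other cell types, 2 of 2 tested skeletal muscle genes were higher in primary AGASAC (summed markers 8.02 to 838 CPM, 0 to 15.6 CPM in HGA), whereas 1 of 6 endothelial genes, CDH5, and the lymphatic chemokine gene CCL21 were higher in HGA. None of 7 fibroblast, 4 smooth muscle, 4 macrophage and 4 proliferation genes tested was called. The part of these cell types in the differences was not tested.

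**Figure D2:**
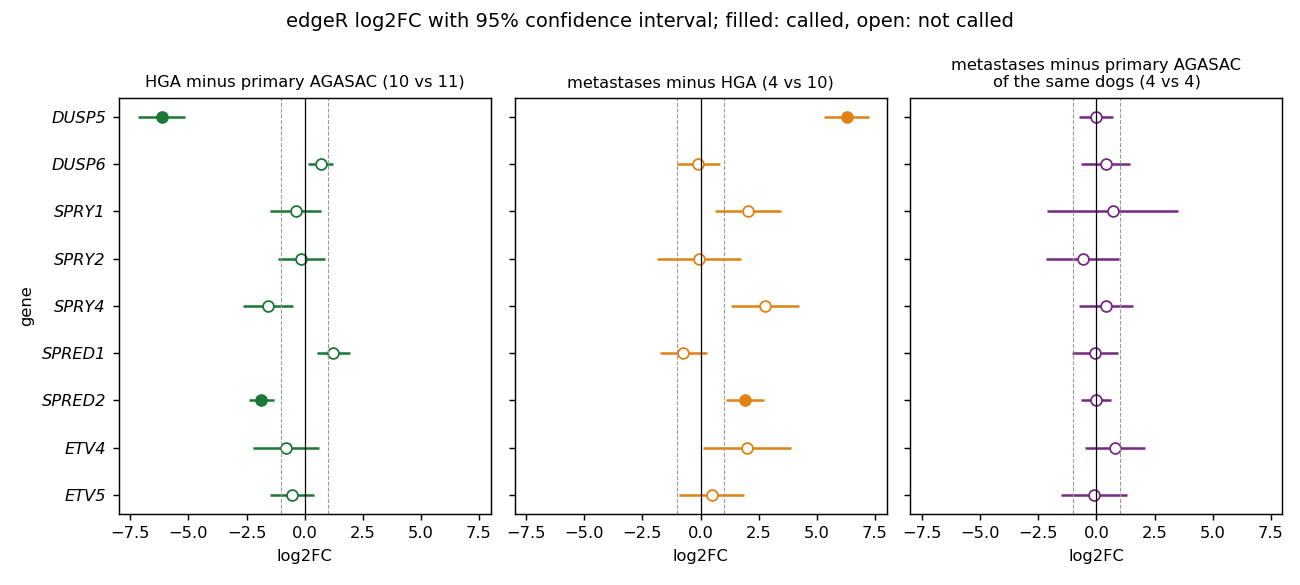
The log2FC of the 9 genes with its 95% confidence interval in HGA versus primary AGASAC (left), metastases versus HGA (center) and metastases versus primary AGASAC of the same dogs (right), with dashed lines at −1 and 1. Filled points mark the called genes, which are DUSP5 (−6.15 and 6.28) and SPRED2 (−1.87 and 1.90) in the comparisons with HGA and 0 genes in the comparison within AGASAC.

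The balance within each gene family was described by the log2 ratio of its members in the same sample, on log2(CPM + 1). These ratios were chosen after the values of the genes were seen and restate them, so that they are given without a test. Because of the added 1, the ratio depends on the scaling of the sample where a gene has few counts, as DUSP5 did in HGA. As QuantSeq 3′ yields about a tag per transcript and primes genes unequally, the shift between tumors is informative here and the ratio itself less so. The log2 ratio of SPRED1 to SPRED2 was 1.48 ± 0.91 in HGA and −1.68 ± 0.80 in primary AGASAC (SD, n = 10 and n = 11). SPRED1 exceeded SPRED2 in 9 of 10 HGA, in 0 of 11 primary AGASAC and in 1 of 4 metastases, the exception among HGA being HGA 9, which lay next to AGASAC 6, the highest of the primary tumors (both at −0.41).

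The log2 ratio of DUSP5 to DUSP6 was −6.06 ± 0.97 in HGA and 0.40 ± 0.73 in primary AGASAC. DUSP5 exceeded DUSP6 in 0 of 10 HGA, in 7 of 11 primary AGASAC and in 3 of 4 metastases.

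**Figure D3:**
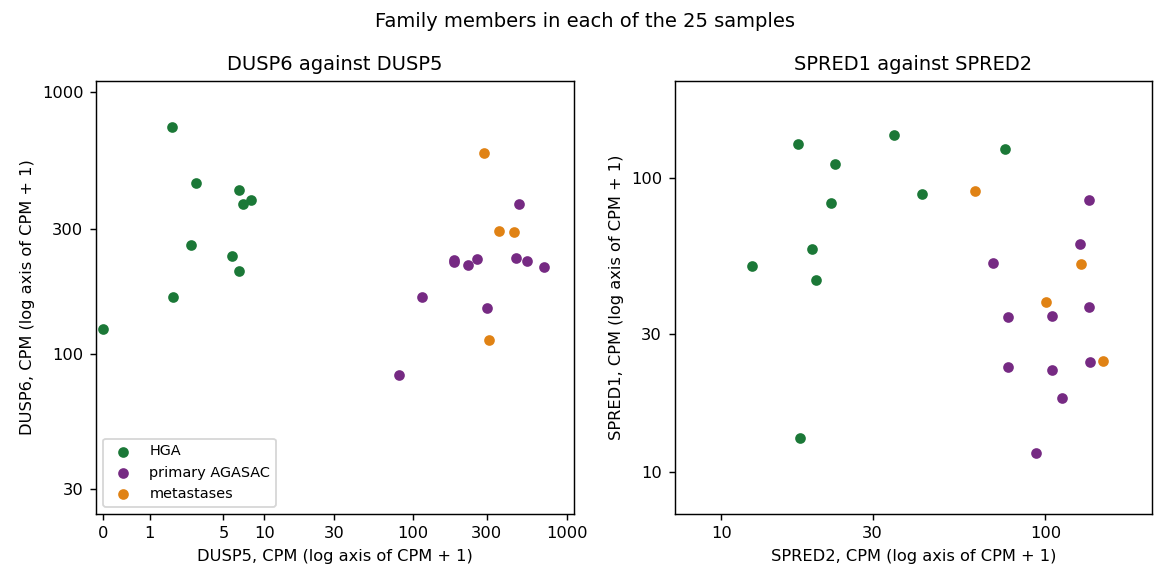
DUSP6 against DUSP5 (left) and SPRED1 against SPRED2 (right) in the 25 samples, in CPM on log axes of CPM + 1 and colored by group. HGA lies left of all AGASAC samples for DUSP5 at similar DUSP6 levels. The SPRED panel places most HGA at the upper left and most primary AGASAC at the lower right. Among the exceptions are HGA 9 with 13.2 CPM of SPRED1, HGA 10 with 75.7 CPM of SPRED2 and AGASAC 2 with 84.3 CPM of SPRED1.

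The other genes of the pathway were counted in lists chosen with earlier results of these data known. The counts below stand beside the shares of all 12070 tested genes, of which 12.6% were called higher in HGA and 12.5% higher in AGASAC. Among 6 tested further MAPK phosphatase genes, DUSP1 (log2FC 1.33, 64.0 ± 41.7 versus 25.9 ± 13.3 CPM) and DUSP2 (log2FC 2.62, 21.6 ± 14.9 versus 3.53 ± 2.91 CPM), both inducible nuclear phosphatases, were called higher in HGA. DUSP10, which acts mainly on the stress kinases JNK and p38, was called higher in AGASAC (log2FC −3.34, 4.64 ± 11.5 versus 48.8 ± 42.5 CPM). DUSP1 and DUSP2 thus differed in the opposite direction to DUSP5, and DUSP10 in the same direction. DUSP9 was also listed but was not tested between HGA and primary AGASAC. It had 0.430 to 13.1 CPM in HGA (at most 50 counts) and 0 to 0.297 CPM in primary AGASAC (at most 1 count). The ranges did not overlap, but the lowest HGA value was below the limit given above for genes without a count.

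Among 7 further feedback regulators, IL17RD, also known as Sef, an inhibitor of FGF receptor signaling (log2FC −2.54), and NF1, which encodes neurofibromin, the partner of the SPRED proteins (log2FC −1.32), were called higher in AGASAC and 0 were called higher in HGA. The median log2FC of this list was −0.54. Of 17 tested genes of the RAS-ERK cascade, SOS2, which encodes a nucleotide exchange factor of RAS (−1.25), and the ERK-activated kinase gene RPS6KA1 (−2.02) were called higher in AGASAC and BRAF (1.32) was called higher in HGA, while 14 were not called and the median was 0.36. Of the 3 genes of the CIC repressor complex, 0 were called, with CIC at −0.35 (standard error 0.17, BY-adjusted p = 1).

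Of 9 tested genes that respond to ERK, 4 were called higher in AGASAC and 0 higher in HGA, with a list median of −1.56 against −0.03 over all tested genes. ETV1, the closest relative of ETV4 and ETV5, had the largest difference of the 4, at 12.9 ± 11.8 CPM in HGA and 448 ± 445 CPM in primary AGASAC (log2FC −5.07, BY-adjusted p = 1.74e-05). CCND1, the gene of cyclin D1, followed with 54.3 ± 27.2 and 579 ± 339 CPM (log2FC −3.38, BY-adjusted p = 9.41e-07), and PHLDA1 and IER3 had log2FC values of −2.01 and −1.56. FOS, EGR1 and MYC, which respond within minutes to hours, were not called (−1.19, −0.88 and 1.46, BY-adjusted p of 0.336 to 1).

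Of 8 tested receptor tyrosine kinase genes, 3 were called higher in HGA, 2 were called higher in AGASAC and 3 were not called. MET (log2FC 4.82, 176 ± 42.2 versus 6.21 ± 10.3 CPM), EGFR (log2FC 2.71, 677 ± 268 versus 106 ± 116 CPM) and IGF1R (log2FC 2.09) were higher in HGA, whereas FGFR1 (log2FC −2.64, 50.5 ± 22.4 versus 322 ± 115 CPM) and ERBB3 (log2FC −1.62) were higher in AGASAC. Of 6 FGF ligand genes only FGF2 passed the filter on low counts, and it was not called.

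**Figure D4:**
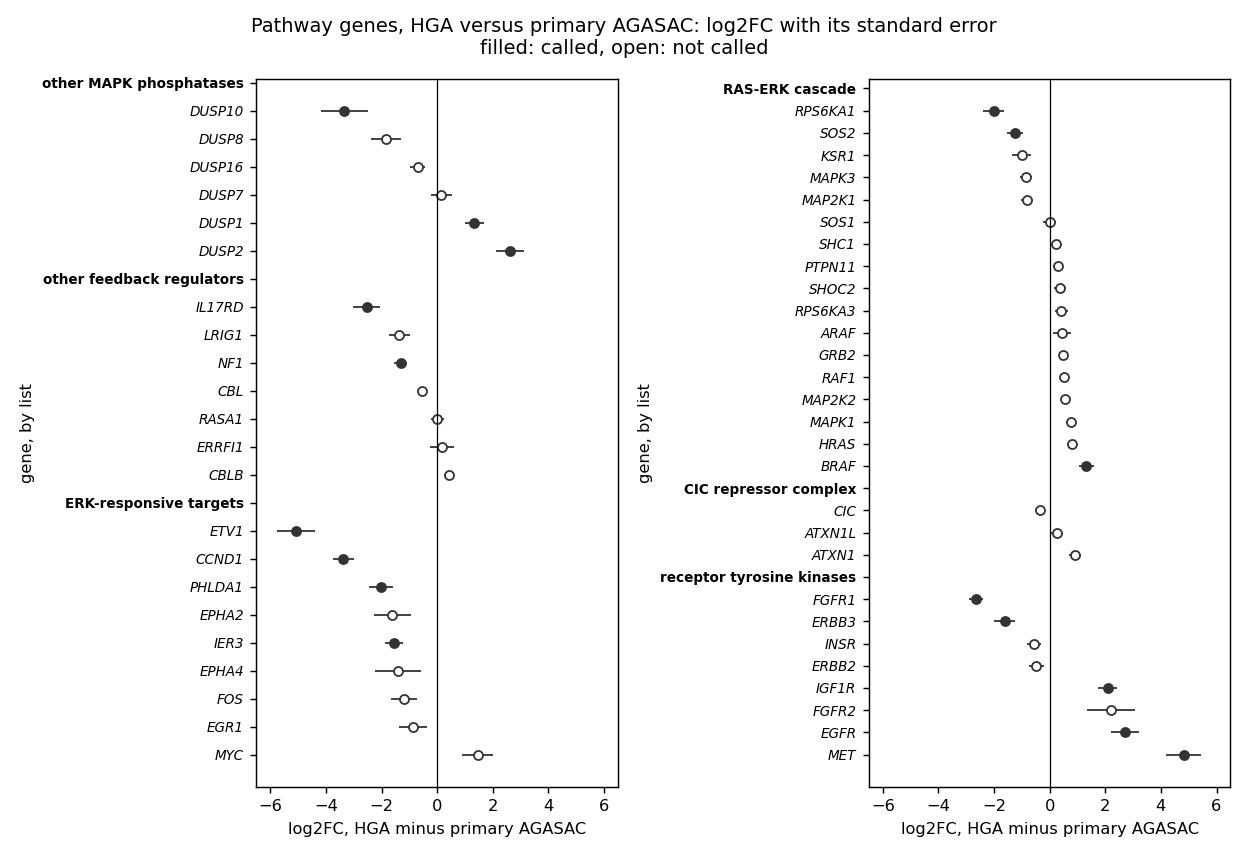
The log2FC of HGA versus primary AGASAC with its standard error for the tested genes of 6 pathway lists, with filled points for called genes. The called ERK-responsive genes (ETV1, CCND1, PHLDA1, IER3) all lie left of 0, on the AGASAC side, while the called phosphatase and receptor genes lie on both sides.

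Each of the 4 metastases had its primary tumor among the samples, and both were compared. Of the 9 genes 0 were called, as were 0.00% of the 12629 genes tested (145 genes, none of them one of the 9, had an unadjusted p under 0.05), and DESeq2 also called 0 of the 9. With 4 samples per group, large differences could have gone undetected. In this comparison the log2FC is that of the metastases relative to the primary tumors. The interval for DUSP5, −0.74 to 0.69 around a log2FC of −0.02, was among the narrower ones, and that of SPRY1 (0.69, −2.13 to 3.52) was the widest. This fit took the samples as independent, so that its intervals do not use that samples of the same dog deviated together, and the dog as a replicate block changed none of these calls.

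DUSP5 had 485 and 450 CPM in the primary tumor and the metastasis of dog 1, 464 and 361 CPM in dog 2, 300.4 and 313 CPM in dog 3, and 184 and 287 CPM in dog 4. The metastasis was lower in dogs 1 and 2 and higher in dogs 3 and 4, and every value stayed above the highest HGA. SPRY1 had 11.8 and 4.22 CPM in dog 1, 120 and 216 CPM in dog 2, 17.8 and 13.2 CPM in dog 3, and 8.89 and 16.3 CPM in dog 4. The high SPRY1 level of the primary tumor of dog 2 was thus present in its metastasis as well, and in none of the other dogs. Metastasis 2 also had the highest sum of fibroblast markers (12955 CPM, 738 to 3020 CPM in the other metastases) and of smooth muscle markers (443 CPM, 26.9 to 96.2 CPM in the others), and the part of these cells was not tested.

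SPRY4 followed the dog in a similar way, with 10.9 and 7.14 CPM in dog 1, 20.6 and 32.4 CPM in dog 2, 23.1 and 34.4 CPM in dog 3, and 12.0 and 13.4 CPM in dog 4. Dogs 2 and 3 had the higher levels in both samples. SPRY2 had 22.0 CPM in the primary tumor of dog 4 but 0.958 CPM, or 3 counts, in its metastasis, while the difference in the other 3 dogs was between −0.48 and 0.10 on the log2 scale. The fitted log2FC of SPRY2 was −0.59 (95% confidence interval −2.17 to 0.98). ETV4 had 14.5 and 9.73 CPM in dog 1, 1.63 and 9.55 CPM in dog 2, 10.4 and 19.6 CPM in dog 3, and 6.39 and 17.9 CPM in dog 4, which was higher in the metastasis of 3 of 4 dogs (log2FC 0.79, 95% confidence interval −0.50 to 2.07).

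DUSP6 was highest in the metastasis of dog 4, with 225 CPM in the primary tumor and 586 CPM in the metastasis, against 375 and 293, 234 and 294, and 150 and 113 CPM in dogs 1 to 3. SPRED2 had 127 CPM in both samples of dog 1, 135 and 61.3 CPM in dog 2, 105 and 101 CPM in dog 3, and 77.0 and 149 CPM in dog 4. SPRED1 kept the order of the dogs more closely, with 60.3 and 51.9, 84.3 and 90.2, 34.7 and 38.6, and 34.5 and 24.3 CPM in dogs 1 to 4. None of these differences had one direction in all 4 dogs.

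**Figure D5:**
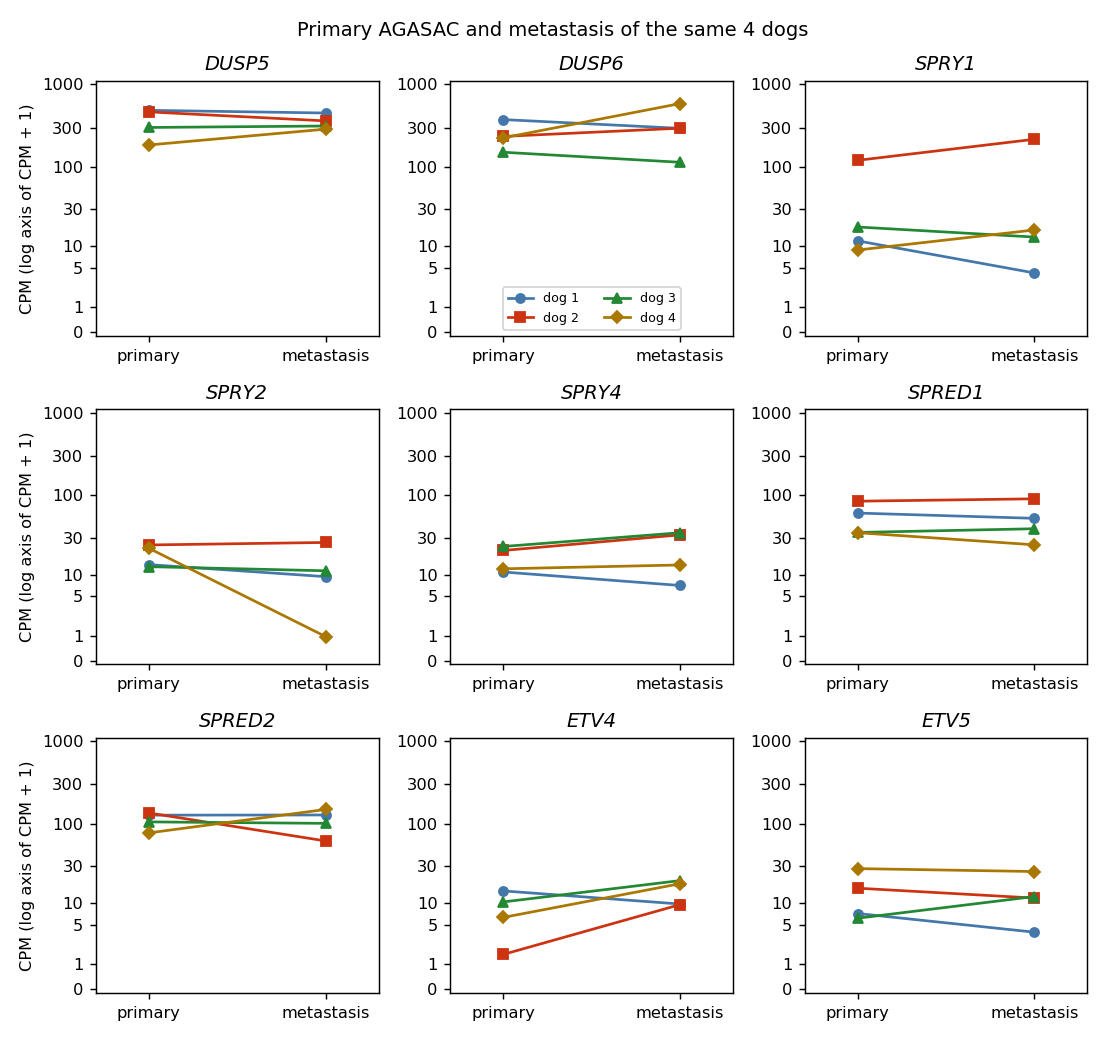
Levels of the 9 genes in the primary AGASAC and the lymph node metastasis of the same 4 dogs, in CPM on a log axis of CPM + 1, with a line for each dog. The lines of SPRY1 and SPRED1 show dog 2 highest in both samples, and SPRY2 of dog 4 drops from 22.0 to 0.958 CPM.

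Between the metastases and HGA, 2 of the 9 genes were called, with 16.1% of 13195 genes called in all, 7.69% higher in the metastases and 8.40% higher in HGA. This comparison shares the HGA with that of the primary tumors and the metastases with the comparison within AGASAC, and is given beside them as values of its own. DUSP5 had 287 to 450 CPM in the metastases (log2FC of metastases relative to HGA 6.28, standard error 0.45, BY-adjusted p = 5.78e-07). SPRED2 had 127, 61.3, 101 and 149 CPM in metastases 1 to 4 (log2FC 1.90, standard error 0.39, BY-adjusted p = 0.0131), and metastasis 2 lay below HGA 10. This call was lost without metastasis 1 (adjusted p = 0.0533) and without metastasis 4 (adjusted p = 0.0764).

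SPRY4 did not overlap between metastases (7.14 to 34.4 CPM) and HGA (0 to 6.76 CPM), nor did DUSP5, as was the case for 16.1% of all genes tested in this comparison. Its log2FC of 2.78 (standard error 0.69) had a BY-adjusted p of 0.0555, and DESeq2 (0.00703), library size alone (0.0283) and a fit to all 25 samples (0.0134) called it, as did the fits without HGA 2 (0.0462) and without HGA 4 (0.0405). Of 9 tested ERK-responsive genes (list median 1.89), 4 were called higher in the metastases, ETV1, CCND1, PHLDA1 and IER3, and 0 higher in HGA. HMGA2, tested here in place of EPHA4, was not called (log2FC −7.09, BY-adjusted p = 0.0616) and had 0 counts in the metastases. Among 8 tested receptor genes, 1 was called higher in the metastases and 4 higher in HGA. Among 7 further phosphatase genes, 0 were called higher in the metastases and 1, DUSP9 (log2FC −7.32), higher in HGA. Among 7 further feedback regulators, 2 were called higher in the metastases and 0 higher in HGA. Library size alone shifted the median of all genes by 0.281 here and raised the share of called genes higher in the metastases from 47.8% to 63.7%.

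HGA is known as an androgen-dependent tumor, and HGA of 6 intact and 4 neutered dogs were compared. Of 8 tested genes (ETV4 did not pass the filter) 0 were called, as were 0.00% of the 11906 genes, while 3 of the 8 genes and 1167 of all genes had an unadjusted p under 0.05 and DESeq2 called 0 of the 9. The 3 genes were all lower in the intact dogs. SPRY2 had 0 to 8.63 CPM in the intact dogs (median 5.11) and 22.1, 9.49, 9.04 and 52.0 CPM in the neutered dogs HGA 1, 2, 8 and 10, which did not overlap (2.62% of all genes tested here did not, log2FC of intact relative to neutered −2.27, standard error 0.69, BY-adjusted p = 1).

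SPRED1 likewise did not overlap, with 13.2 to 88.5 CPM in the intact dogs (median 54.5) and 111, 139, 130 and 125 CPM in the neutered dogs (log2FC −1.18, standard error 0.39, BY-adjusted p = 1). ETV4, which was not tested, had 0 to 1.27 CPM in the intact dogs and 3.62, 6.78, 3.70 and 17.6 CPM in the neutered dogs. DUSP6 had 125 to 387 CPM in the intact dogs and 238, 734, 422 and 449 CPM in the neutered dogs (log2FC −0.89, standard error 0.38, BY-adjusted p = 1). The intact dogs were 2 females and 4 males and the neutered dogs 3 females and 1 male, so that gonadal status and sex cannot be fully told apart. RNA quality differed as well. DV200, the percentage of RNA fragments over 200 nucleotides, was 70.5 to 74.2 in the neutered and 70.7 to 92.7 in the intact dogs. HGA 9, with 92.7, had the lowest SPRED1 and DUSP6 of all HGA. HGA 4, with 82.4 and the fewest counts, had the lowest SPRY2. The part of RNA quality and depth was not tested. The log2FC of SPRY2 was −1.47 without HGA 10.

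Among the primary AGASAC, the 4 tumors with a sampled metastasis were compared with the 7 without. Of the 9 genes 0 were called, while 0.00755% of 13242 genes were called (1 gene), 3 of the 9 genes and 1010 of all genes had an unadjusted p under 0.05, and DESeq2 called 0 of the 9. SPRY4 did not overlap, at 10.9, 20.6, 23.1 and 12.0 CPM in AGASAC 1 to 4 and 2.43 to 7.78 CPM in AGASAC 5 to 11, and 1.16% of all genes tested here did not overlap either (log2FC of tumors with relative to those without a sampled metastasis 1.55, standard error 0.39, BY-adjusted p = 1). SPRED1 had 60.3, 84.3, 34.7 and 34.5 CPM in the former and 11.7 to 52.0 CPM in the latter (log2FC 0.97, standard error 0.38, BY-adjusted p = 1). The log2FC of SPRY1 was 2.13 (BY-adjusted p = 1) and was 0.51 without AGASAC 2. The 3 tumors with a metastasis whose file names were used here belonged to naming series A and the 7 others to series B, so that metastasis sampling and naming series cannot be told apart.

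Finally, the 9 genes were compared with each other within each tumor type, over 36 pairs on log2(CPM + 1). In HGA, 26 of 36 Pearson coefficients were positive (median r 0.293), and in primary AGASAC 28 of 36 (median r 0.216). After BH adjustment over the 36 pairs, 0 passed 0.05 by Pearson or Spearman in either tumor type, and at an unadjusted permutation p under 0.05 there were 3 and 4 pairs in HGA and 5 and 2 pairs in primary AGASAC by Pearson and Spearman, respectively. The lowest adjusted values in HGA were those of SPRY2 with ETV4 (r 0.787, rho 0.778, adjusted permutation p = 0.0862 and 0.205) and of DUSP5 with ETV5 (r 0.850, rho 0.806, adjusted permutation p = 0.0862 and 0.205). When the 2 HGA most distant from the median of SPRY2 or DUSP5 were left out, r was 0.592 and 0.397. DUSP5 and SPRED2, the genes that differed between the tumors, had r 0.638 and rho 0.718 in the 11 primary AGASAC (adjusted permutation p = 0.338 and 0.588). With the 2 most distant tumors by DUSP5 left out, r was 0.841 and rho 0.833, which did not pass either (adjusted permutation p = 0.215 and 0.288).

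Over the 21 primary tumors, with log2(CPM + 1) centered within tumor type, the genes whose pattern was most like that of DUSP5 were HM13 and SERINC5 (Spearman rho 0.779 and 0.756). Those of DUSP6 were CHST10 and ERLEC1 (0.822 and 0.708), those of SPRED1 were SP4 and PIK3R2 (0.887 and 0.825), and those of SPRED2 were INPP5K and KLHL21 (0.758 for both). For SPRY1 they were RECQL5 and SVEP1 (0.787 and 0.780), for SPRY2 FAM84B and BPGM (0.846 and 0.797), for SPRY4 CCNT2 and TNRC6B (0.778 and 0.765), for ETV4 IRX3 and MB21D2 (0.843 and 0.796), and for ETV5 LIMS1 and DCAF12 (0.753 and 0.733). These are the highest of all tested genes with a symbol, they share depth and scaling with the gene they resemble, and they are given as a description without a test.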

How the data were processed

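QuantSeq 3′ FWD libraries of 25 canine FFPE tumor samples were analysed. According to the study's methods and the processing notes, the authors trimmed the reads with Cutadapt, aligned them to CanFam3.1 with STAR and ran featureCounts in a pair of rounds, the later one with gene ends extended in 3′ direction, and split multi-mapped reads evenly over their locations. Versions are not given in the sources used here. The deposited values used here are whole read counts per gene without normalization. The deposited table also holds size-factor normalized counts and the authors' own comparison (mean, log2 fold change, standard error, p-values), which were not used.

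Genes were found by symbol. In the list of the RAS-ERK cascade, 1 gene is not reported here and was left out of the list's counts and median. The 9 genes and all lists were chosen with earlier results of these data known. Testing used edgeR 4.0.16 (R 4.3.3): after filterByExpr (minimum count 10, total 15) and TMM scaling, genes were fitted by the quasi-likelihood test without covariates, and p-values were BY-adjusted over all tested genes. Calls required an adjusted p not above 0.05 with a log2FC beyond ±1. No shrinkage step followed the fit, but the default prior count of edgeR draws the log2FC toward 0 and keeps it finite for a group without counts. The standard error of the log2FC is the log2FC divided by the root of F, and CPM use TMM factors over 25 samples. DESeq2 1.42.0 was an alternative, beside other scalings, filters and adjustments, covariates, batches and each sample left out. The fit was tested on simulated data. Correlations were tested by permutation with 100000 resamples, two-sided. A metastasis and the primary tumor of its dog deviated together from their group means (correlations 0.428 to 0.730 in 4 of 4 dogs), and the dog is given by the labels. Chi-square values per degree of freedom of at least 12.2 in HGA, 24.7 in primary AGASAC and 32.6 in metastases showed 0 duplicated libraries. Named genes are the 9 genes, called genes of the pathway lists (up to 5 a list), the genes named in the background, and the 2 most alike genes of each. FOS, EGR1, MYC, FGF2, DUSP9, HMGA2, EPHA4, CDH5 and CCL21 were named after their values were seen. Extraction batches and file naming series are from the study's supplement. Each group's replicates are separate dogs.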

Additional observations from a re-analysis of the deposited data

Results flagged for a closer look

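The combinations examined were the 9 genes in HGA and in the metastases. In 5 of these 18 combinations, a single sample stood far from the rest of its group by a test of gaps on CPM. Chance alone passes this test in about 1 of 20 groups only if values are normally distributed, which CPM need not be. The 5 flagged values were all the highest of their group, and the test was not run on a log scale. In HGA these were DUSP6 in HGA 2 (734 CPM, next 449 CPM) and SPRY2 (52.0 CPM, next 22.1 CPM), SPRED2 (75.7 CPM, next 42.4 CPM) and ETV4 (17.6 CPM, next 6.78 CPM) in HGA 10. HGA 10 was thus the highest HGA for 3 of the 5, and it also had the highest sum of proliferation markers (221 CPM, 11.2 to 158 CPM in the other HGA). As the only sample of extraction batch 9, HGA 10 cannot be told apart from its batch. The fifth was SPRY1 in metastasis 2 (216 CPM, next 16.3 CPM), from the dog whose primary tumor, AGASAC 2, had the highest SPRY1 level as well. What set these samples apart was not tested.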

How the results depend on the processing

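Of 539 recomputed log2FC values, 503 kept direction and side of the thresholds, 7 lost and 15 gained a call and 14 changed sign, and the causes were not tested. Between HGA and primary AGASAC, 1 gene was called with at least 10 counts in every sample (3 of the 9 tested), 4 with BH, 0 in extraction batch 5, 1 in batch 6 and 0 in batch 8, and 2 to 3 with a sample left out. Between metastases and HGA, 1 was called with at least 10 counts in every sample (4 tested), 4 with BH and 1 to 3 with a sample left out. Over all genes, the 3032 calls between HGA and primary AGASAC became 1452 with that filter, 2009 with the naming series as a term and 262, 637 and 338 in batches 5, 6 and 8, and the 2124 between metastases and HGA became 1153 with that filter and 3536 with BH. DESeq2 called 5 genes between metastases and primary tumors, 20 by gonadal status and 16 by metastasis sampling, against 0, 0 and 1. In the other comparisons 0 of the 9 genes were called under all alternatives. The log2FC of SPRY1 between HGA and primary AGASAC was 0.54 with DESeq2, 0.97 in batch 6, 0.12 with gonadal status, 0.21 with the label number as a replicate block, but −1.63 in series A, −1.48 in batch 8 and −1.23 with the naming series as a term, and −0.55 to 0.59 with a sample left out. With the naming series as a term, SPRY2 was 0.033 and ETV5 0.049, whereas SPRY2 was −1.11 with the extraction batch as a term, −1.37 and −1.61 in batches 5 and 8 and −1.09 in series A. For metastases relative to primary tumors, the log2FC of DUSP5 was 0.053 with the dog as a replicate block, 0.12 in the fit to 25 samples and −0.23 to 0.16 with a sample left out, and that of SPRY1 −1.81 to 2.33 with a sample left out. The dog as block called 0 of the 9 genes. HGA and AGASAC of the same label number are different dogs (correlations −0.0554 to 0.0409), and that block called 2 of the 9. ETV4 and SPRY4, with at most 3 counts in several HGA, are limited by depth.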
